A study of Mus musculus with 15 samples.

Results

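The comparison described here sets primary mouse myoblasts that received small interfering RNA against Lmod1 (siLmod1) beside the same primary lines given a control small interfering RNA (siCtrl). It covers 10 of the 15 libraries of the series, namely every library labelled siCtrl or siLmod1, 5 in each group, paired by the replicate number that the labels carry (1, 2, 3, 4 and 7). The other 5 libraries were treated with small interfering RNA against Sirt1 (siSirt1) and serve for comparison only. They are used to ask whether genes also differed between siLmod1 and the other knockdown. They also enter the description of short sequence words and 1 alternative fit of all 15 libraries. All cells were wild type, of strain C57BL/6J, were transfected with a lipid reagent and were then differentiated for 1 day. The series' design text names 5 different primary lines, so the replicate number is taken as the line, and 1 transfection per line and group was sequenced. Polyadenylated RNA was measured with a kit that does not keep the strand, so reads from overlapping or antisense genes cannot be told apart. The study asked which early transcripts of the myogenic programme respond to the loss of Lmod1.

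Lmod1 encodes leiomodin 1, a member of the tropomodulin family that binds actin and starts new filaments. Its relatives leiomodin 2 and leiomodin 3 serve the thin filaments of heart and skeletal muscle, while leiomodin 1 is known best from smooth muscle. Myoblasts are the dividing precursors of muscle fibres: when growth factors are withdrawn they leave the cell cycle, switch on Myog, align, fuse and build sarcomeres, and this remodelling depends on actin filaments and adhesion sites. A small interfering RNA cleaves the transcript it matches along its whole length, and the seed at its 5′ end can also lower transcripts that match the seed in their 3′ untranslated region (3′ UTR).

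Counted reads per library ranged from 26097889 to 33601761 in siCtrl and from 27135398 to 31829009 in siLmod1. Mitochondrially encoded transcripts took 1.92% to 2.73% of the reads in siCtrl and 2.4% to 3.3% in siLmod1, and whether this bears on any result was not tested. Line 4 stood apart on the leading principal component (46.7% of variance), with its pair of libraries at 109.5 and 108.8 and the other 8 between -44.0 and -0.485. After removal of the group means, libraries of the same number correlated at 0.716 to 0.879 (5 pairs) and those of different numbers at -0.487 to 0.062 (20 pairs). The fit therefore kept the line as a block, with 4 residual degrees of freedom. The label of primary myoblasts matched the RNA: Myod1, the factor that commits cells to the muscle lineage, stood at 1043 to 1638 TPM (the authors' level, scaled by gene length and library) in siCtrl and 1053 to 1612 in siLmod1, and its fitted log2 fold change was 0.04 (adjusted p = 0.67).

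Lmod1 itself (ENSMUSG00000048096, mm10 chr1:135324807-135368065, plus strand) was lower in every line that received its small interfering RNA. In siCtrl lines 1, 2, 3, 4 and 7 it stood at 18.4, 32.6, 29.8, 4.46 and 33.9 TPM, and in siLmod1 at 2.01, 4.25, 3.3, 1.08 and 3.3 TPM. The groups did not overlap, although line 4 began far below the other lines. The log2 fold change was -3.07 (SE 0.14, n = 5 lines, edgeR quasi-likelihood test with Benjamini-Hochberg adjusted p = 2.8e-06), and without the line as a block it was -3.13 and missed the threshold (adjusted p = 0.069). Lmod1 was also lower than in siSirt1 cells, by 2.04 on the log2 scale (adjusted p = 0.0024).

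The leiomodins of striated muscle took other courses. Lmod2 stood at 257, 328, 263.6, 111.9 and 301.4 TPM in siCtrl and at 392.2, 449.8, 380.1, 213.1 and 494.2 in siLmod1, a rise in 5 of 5 lines (log2 fold change 0.60, SE 0.06, adjusted p = 0.00015), with groups that overlapped, line 4 being low in both. Lmod3 stood at 428.4 to 938.3 TPM in siCtrl and 387.2 to 907.8 in siLmod1 and did not pass the test (-0.13, adjusted p = 0.1). By TPM, which is per length, Lmod3 was the most abundant of the family in each of the 10 libraries and Lmod1 the least. Sirt1, the deacetylase that the series targets in its other arm, rose from 9.79 to 20.9 TPM over siCtrl lines to 16.1 to 31.6 over siLmod1 lines, with a log2 fold change of 0.54 (SE 0.06, adjusted p = 0.00014) and the same direction in 5 of 5 lines.

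**Figure D1:**
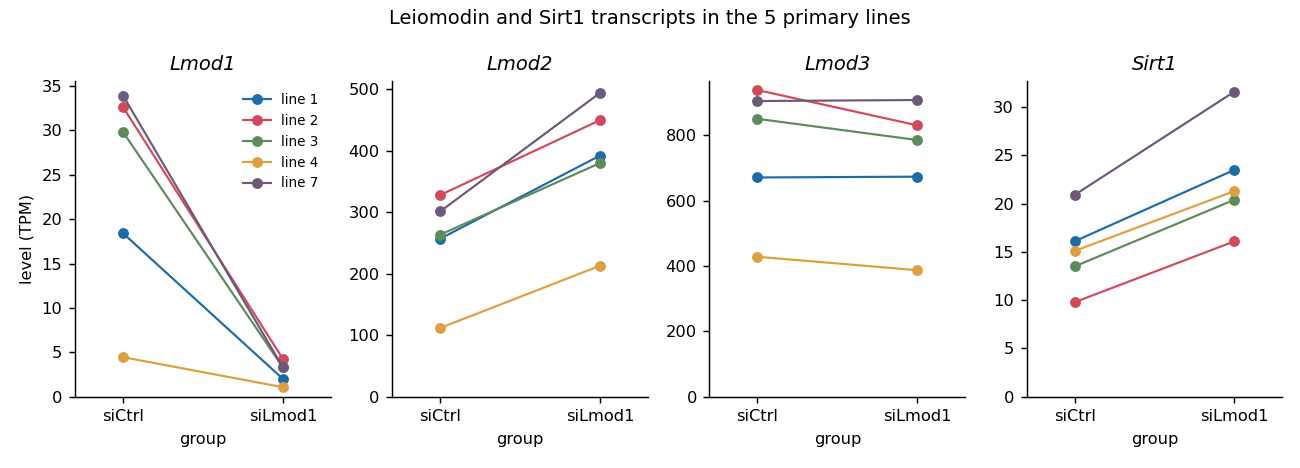
Levels (TPM, linear axes that start at 0) of Lmod1, Lmod2, Lmod3 and Sirt1 in siCtrl and siLmod1, with 1 point per library and a line joining the libraries of the same primary line. Lmod1 falls below 5 TPM in all siLmod1 libraries, Lmod2 and Sirt1 slope upward in each line, and Lmod3 stays near its starting level.

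Across the transcriptome, small changes in many genes went with a short list of strong losses. Of 15022 genes tested, 4430 were called at an adjusted p under 0.05 (29.5%), 1944 higher (12.9%) and 2486 lower (16.5%). The median size of a called change was 0.37 on the log2 scale, 0.31 for higher genes and -0.44 for lower genes, and 3964 of the called genes had the same sign in 5 of 5 lines. Past 2-fold, the calls leaned to losses, with 84 genes higher (0.559%) and 262 lower (1.74%), together 2.3% of genes tested. Without the block, 17 genes passed (0.113%), all of them lower, while 1351 had an unadjusted p under 0.05, and all 17 were among the blocked calls. Nearly all results below thus rest on the within-line differences, and of the genes named below Capza1, Erh, Rac1 and Alg10b passed in both fits.

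How libraries are scaled decided which direction held the majority. With library totals in place of TMM the same test called 2741 higher and 1978 lower, and limma on log2(TPM + 1) called 2347 higher and 1556 lower, so that 58.1% and 60.1% of the calls were higher against 43.9% in the TMM fit. The median of all genes moved by about the same small step, from -0.01 to 0.043 and 0.036. The strong losses do not hang on this step, which is far smaller than their size. Leaving out 1 line at a time gave 2833 calls without line 1 and 4264 without line 4, the line that stands apart.

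**Figure D2:**
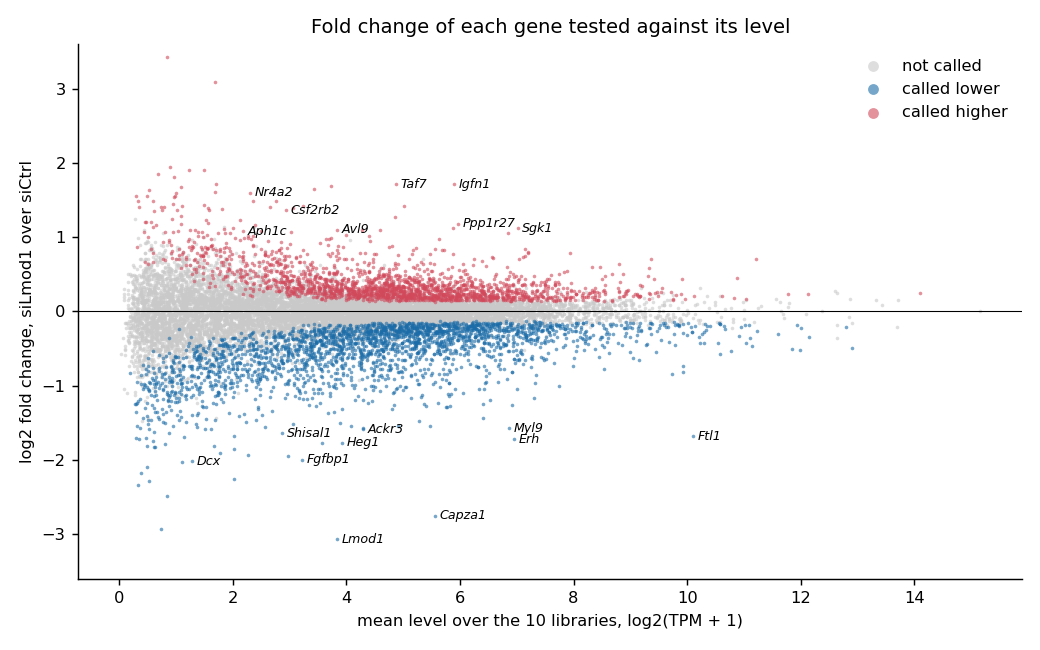
Log2 fold change of siLmod1 over siCtrl (vertical axis) against the mean level over 10 libraries as log2(TPM + 1) (horizontal axis) for 15022 genes, coloured by whether the gene was called, with names for genes of the rule on large changes where they fit. Lmod1 at -3.07 and Capza1 at -2.75 lie far below genes of like level, the weakly expressed Gm3608 lies between them at -2.93, the top points are the weakly expressed Hist4h4 (3.43) and Lce1l (3.09), and changes of abundant genes are small.

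Short sequence words in the 3′ UTRs are shown next, since most of the deepest losses share one. Among 11124 words of 7 bases that occur in at least 500 of 12802 annotated 3′ UTRs (GENCODE M21, transcript strand only), ATGAACC went with the lowest mean log2 fold change: the 901 genes that carry it averaged -0.165 and the others -0.045. The difference of the means was -0.12. It was -0.098 to -0.089 for the next 4 words, all of which overlap the first; TGAACCA came second. The lowest word outside this family was GGGGGCG at -0.079, and the highest of all was TAAGTAA at 0.045. The words of the family share TGAACC or most of it, and this core was then counted in each 3′ UTR; it was picked for its low values, so what follows is a description with no test.

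Genes with more copies of the core TGAACC sat lower. At least 1 copy was found in 26.75% of the 3′ UTRs. The 9378 genes without it had a median log2 fold change of 0.004 and 15.91% of them were called lower. The 2522 genes with 1 copy had a median of -0.059 with 24.23% called lower, and the 902 genes with 2 or more copies a median of -0.102 with 30.93% called lower. Against siSirt1 cells, which share the siLmod1 libraries with this comparison, the medians were 0.009, -0.055 and -0.105. For siSirt1 against siCtrl they were 0.005, 0.006 and 0.014, a flat series.

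The step was seen in each line. In lines 1, 2, 3, 4 and 7 the median within-line log2 difference of genes with 2 or more copies minus that of genes with none was -0.133, -0.059, -0.142, -0.14 and -0.083. Genes with copies have longer 3′ UTRs, with median lengths of 905, 1994 and 3546.5 bases for 0, 1 and 2 or more copies. Within each of 4 equal classes of 3′ UTR length, genes with a copy had the lower median: -0.12 against 0.007 in the shortest class, -0.076 against -0.004 and -0.062 against -0.003 in the middle ones, and -0.068 against 0.022 in the longest. Neither labels nor files state the sequences of the small interfering RNAs, and the part of a seed match in these values was not tested.

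**Figure D3:**
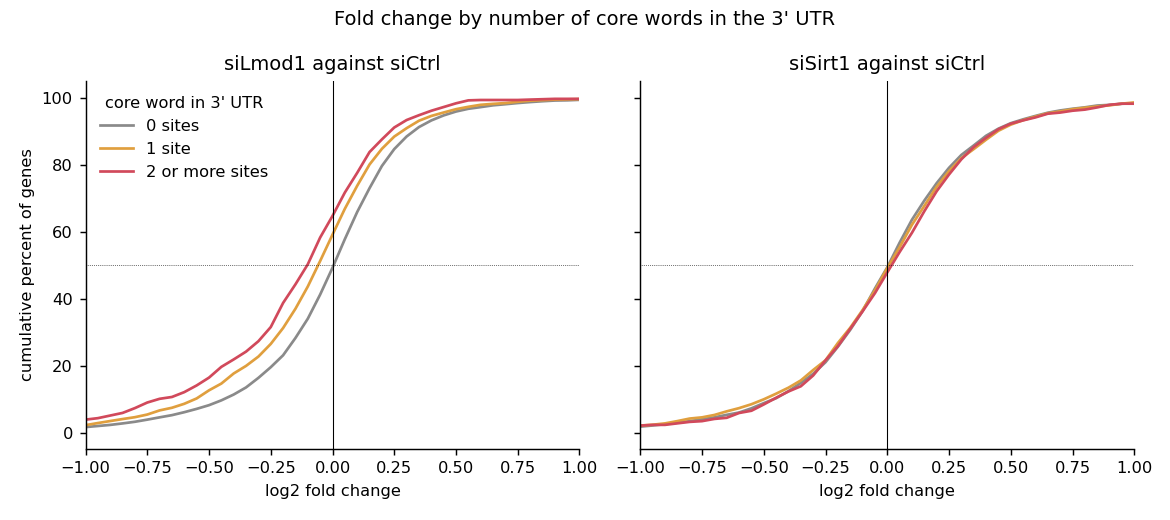
Cumulative percent of genes (vertical axis) by log2 fold change (horizontal axis) for genes with 0, 1 or 2 or more copies of the core word in the 3′ UTR, for siLmod1 against siCtrl on the left and siSirt1 against siCtrl on the right. The curves separate in order of copy number on the left, with medians of 0.004, -0.059 and -0.102, and lie together on the right, with medians of 0.005, 0.006 and 0.014.

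Sites of the core in transcripts that fell deeply are printed below, 5′ to 3′ on the transcript strand, with each copy of the core in capitals and 11 bases on either side of the first. Coordinates are mm10, all sites but the last lie in 3′ UTR exons of GENCODE M21, and the first site from the 5′ end is shown where a gene has several. Capza1 has 3 copies, as do Heg1 and Rac1. Alg10b has 2, and Erh, Ftl1, Ackr3 and Myl9 have 1 each. The last line is the single copy in Lmod1, which lies in its coding sequence, while its 3′ UTR of 1957 bases holds 0.
Capza1, chr3:104824819-104824846, minus strand: tggaatactgtTGAACCtacagcactgt
Heg1, chr16:33769867-33769894, plus strand: tagtagaagtgTGAACCtatgtgggctg
Rac1, chr5:143506836-143506863, minus strand: taaaaccatttTGAACCaaTGAACCagt
Alg10b, chr15:90232320-90232347, plus strand: ttgtattgtttTGAACCacaaagattta
Erh, chr12:80637088-80637115, minus strand: gtggtacacctTGAACCagactatagac
Ftl1, chr7:45458019-45458046, minus strand: ctccacctgaaTGAACCtctcaagccac
Ackr3, chr1:90215604-90215631, plus strand: agtttgttacaTGAACCatattgtagag
Myl9, chr2:156781264-156781291, plus strand: agggccggaacTGAACCgtaagacccac
Lmod1, chr1:135364339-135364366, plus strand: agcatatttgaTGAACCtctggagaaag

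Among the 12 genes with the deepest fall (called, a mean of 5 CPM, counts scaled to the library total, or more, lower in 5 of 5 lines), Capza1 followed Lmod1. It encodes the alpha subunit of the protein that caps the growing end of actin filaments. Capza1 stood at 73.7, 80.6, 73.2, 94.6 and 76.6 TPM in siCtrl and at 10.4, 13.4, 12.9, 12.9 and 11.6 in siLmod1. Every line lost most of the transcript and the groups lay far apart (log2 fold change -2.75, SE 0.07, adjusted p = 3.0e-08; against siSirt1 -2.40, adjusted p = 0.0001). Groups that do not overlap in TPM were found for 2.58% of genes tested, 0.952% lower and 1.62% higher.

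Erh, a small nuclear protein of RNA processing, behaved alike across lines, from 200.6, 170.9, 197.8, 177.8 and 187.1 TPM to 45.9, 71.4, 66.0, 54.5 and 56.4 (-1.72, SE 0.1, adjusted p = 7.0e-06). No siLmod1 library reached the lowest siCtrl library. Ftl1, the light chain of the iron store ferritin, was the most abundant of the 12, at 2380, 767.1, 1274, 2324 and 1710 TPM in siCtrl and 623.6, 348.5, 443.7, 535.4 and 619.9 in siLmod1 (-1.68, SE 0.12, adjusted p = 2.7e-05). Its groups did not overlap either, but the annotation holds pseudogenes of Ftl1, and how shared reads were assigned is not known here.

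Heg1, a transmembrane protein of cell junctions, went from 10.3, 30.0, 21.4, 20.9 and 24.4 TPM to 2.09, 11.7, 5.13, 10.8 and 5.63 (-1.77, SE 0.16), with overlap only where the high siLmod1 lines 2 and 4 reached the low siCtrl line 1. Ackr3, a scavenging receptor for the chemokine CXCL12, fell from 12.9, 13.7, 15, 86.7 and 12.3 TPM to 3.54, 5.75, 5.62, 27.0 and 4.35 (-1.59, SE 0.09). Line 4 carried several times the level of the others in both groups. Aqp1, a water channel, fell from 4.67 to 52.9 TPM over siCtrl lines to 1.74 to 10.7 over siLmod1 lines (-1.77, SE 0.15), highest in line 7 in both.

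Lines differed widely in some of these genes, and the fall held within each of the 5 lines, though some lines held few reads. Dcx in line 4 had 11 counts in siCtrl and 1 in siLmod1, and Fgfbp1 in line 7 had 11 and 2. Both siLmod1 counts lie under the floor of 3 counts, so the size of the fall in those lines is uncertain. Fgfbp1, a secreted carrier of fibroblast growth factors, spanned 0.509 to 47.3 TPM in siCtrl and 0.104 to 12.8 in siLmod1 (-2.0, SE 0.26, adjusted p = 0.00046). Dcx, the microtubule-binding doublecortin, spanned 0.0875 to 6.55 TPM in siCtrl and 0.0084 to 1.87 in siLmod1 (-2.02, SE 0.32, adjusted p = 0.0013), so that 1 low siCtrl line lay below most knockdown lines. Adamtsl2, a secreted glycoprotein of the fibrillin matrix, was at 10 to 47.6 TPM against 1.84 to 27.2 (-1.57), and Shisal1 at 0.368 to 17.1 TPM against 0.227 to 6.29 (-1.64). Myl9, the regulatory light chain of smooth and non-muscle myosin, is described with the actomyosin genes below. Of these 12 genes 8 hold the core TGAACC in the 3′ UTR, namely Capza1, Heg1, Aqp1, Erh, Ftl1, Shisal1, Ackr3 and Myl9. Lmod1, Dcx, Fgfbp1 and Adamtsl2 do not. The core lies in 26.75% of all 3′ UTRs, a share not matched for length. The core was picked for the low values of these same data, so this count is a description and no test.

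Among the 12 genes that rose most by the same conditions, Taf7 and Igfn1 led. Taf7, a subunit of the general transcription factor TFIID, stood at 11.5, 13.6, 9.15, 12.9 and 17.0 TPM in siCtrl and at 36.7, 39.1, 29.5, 48.0 and 66.8 in siLmod1 (1.71, SE 0.08, adjusted p = 2.8e-06). The groups did not overlap and each line rose by a similar factor. Igfn1, an immunoglobulin-domain protein of skeletal muscle, rose from 74.6, 20.9, 8.67, 45.1 and 9.33 TPM to 138.9, 70.4, 35.0, 107.1 and 77.3 (1.71, SE 0.25, adjusted p = 0.00079). Its lines spread more, and the groups overlapped.

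Ppp1r27, a regulatory subunit of protein phosphatase 1, rose from 37.5, 19.2, 27.6, 53.9 and 43.9 TPM to 55.9, 57.3, 73.2, 146.5 and 97.6 without overlap (1.18, SE 0.13). Ckmt2, the mitochondrial creatine kinase of sarcomeric muscle, rose from 3.52 to 37.2 TPM over siCtrl lines to 10.8 to 63.6 over siLmod1 lines (1.10, SE 0.14). Nr4a2, an orphan nuclear receptor and immediate early gene, went from 0.793 to 3.41 TPM to 1.47 to 12.2 (1.60, SE 0.19). Sgk1, a kinase induced by serum and glucocorticoids, had a fitted change of 1.12 (SE 0.21, adjusted p = 0.0029) with a very uneven base: line 4 stood at 451.1 TPM in siCtrl and 505.8 in siLmod1, while the other lines went from 9.47 to 57.5 TPM to 27.0 to 126.6.

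Uhmk1, Avl9 and Atp6v1a rose without overlap. Uhmk1, a kinase that phosphorylates splicing factors, went from 23.0 to 49.5 TPM over siCtrl lines to 50 to 110.6 (1.12), and Avl9, a protein of late secretory transport, from 4.71 to 11.1 TPM to 13.1 to 24.8 (1.10). Atp6v1a, the catalytic subunit of the proton pump that acidifies lysosomes, went from 58.9 to 89.4 TPM to 118.5 to 226.1 (1.05, SE 0.09, adjusted p = 6.5e-05). The list closed with Csf2rb2 (1.36), a receptor subunit for interleukin 3 that has a close paralog, Pabpn1l (1.10) and Aph1c (1.08), a subunit of gamma-secretase, each higher in 5 of 5 lines and with overlapping groups. Of the 12 higher genes, Csf2rb2, Uhmk1 and Avl9 hold the core TGAACC, beside the same 26.75%. The largest rises of all came from weakly expressed genes below the level limit, named after their values were seen: Hist4h4, a histone H4 gene with near-identical copies, at 0.121 ± 0.0934 TPM in siCtrl and 1.46 ± 0.915 in siLmod1 (SD, n = 5; 3.43, SE 0.57), and Lce1l, a late cornified envelope gene, at 0.429 ± 0.299 and 4.02 ± 1.88 TPM (SD, n = 5; 3.09, SE 0.43). Both rose in 5 of 5 lines.

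**Figure D4:**
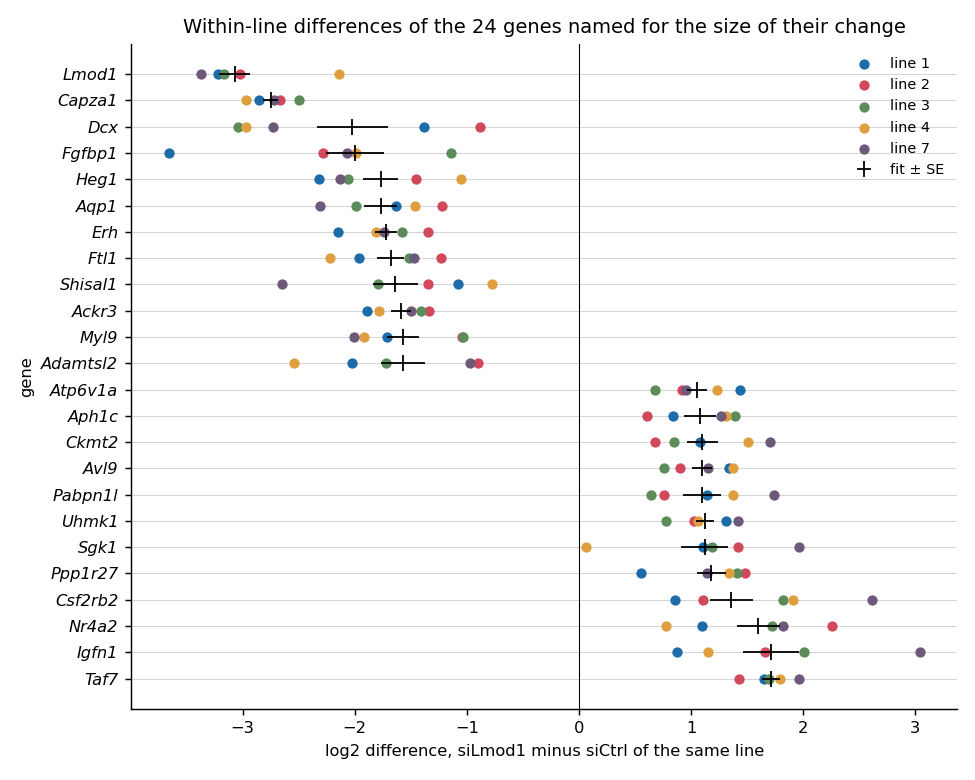
Log2 difference of siLmod1 minus siCtrl within each of the 5 lines (coloured points) and the fitted log2 fold change with its SE (black) for the 12 lower and 12 higher genes named for the size of their change. All points of a gene lie on 1 side of 0; Capza1 and Taf7 have tight points, and Sgk1 in line 4 lies next to 0.

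Several of these genes also differed from siSirt1 cells, in a test that shares the siLmod1 libraries. That test called 2379 of 14998 genes (15.9%), 1264 higher (8.43%) and 1115 lower (7.43%) in siLmod1, and 229 without the block (1.53%; 0.847% higher and 0.68% lower). The pairing was uneven there: libraries of line 1 correlated at 0.372 across the groups and those of the other lines at 0.588 to 0.837. These correlations used CPM without TMM, so they are not on the same measure as those given for siCtrl. The count fell to 1042 without line 1 and 946 without line 3. Erh (-1.52, adjusted p = 0.00098), Ftl1 (-1.91, 0.0012), Heg1 (-1.76, 0.0086) and Ackr3 (-1.69, 0.01) were lower than in siSirt1, and Taf7 (1.00, 0.0052), Igfn1 (2.17, 0.0044), Ppp1r27 (2.27, 0.0038) and Ckmt2 (2.05, 0.015) were higher. No such difference passed for Fgfbp1 (-0.11, adjusted p = 0.91), Myl9 (-0.21, 0.51), Nr4a2 (0.13, 0.84) or Avl9 (0.11, 0.48). Nor did it pass for Aqp1 (-1.83, adjusted p = 0.16), Shisal1 (-0.52, 0.23) or Csf2rb2 (0.79, 0.21). Adamtsl2, lower than in siCtrl, had the opposite sign against siSirt1 and did not pass (1.14, adjusted p = 0.055). The other genes named for the size of their change passed, with the same sign as against siCtrl.

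The abundant transcripts of the differentiation programme shifted by less than 2-fold, in both directions. Named here are the genes with the largest change in CPM by the same conditions. Myog, the transcription factor that opens terminal differentiation, fell from 4417, 4516, 4511, 1599 and 6362 TPM to 2792, 3439, 3161, 1283 and 4806 (-0.50, SE 0.05, adjusted p = 0.00017). Each line lost part of it, and the spread between lines was wider than the loss. Actc1, the cardiac alpha-actin that early muscle uses, fell from 1583 to 15753 TPM over siCtrl lines to 1421 to 11332 over siLmod1 lines (-0.49, SE 0.06), lowest in line 4 in both. Neither Myog (-0.15, adjusted p = 0.65) nor Actc1 (-0.21, 0.66) passed the test against siSirt1.

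The intermediate filament genes Nes and Vim fell with them, while Des, tested among the markers below, was not called. Nes, the nestin of muscle precursors, stood at 951.5, 1649, 1290, 413.9 and 1605 TPM in siCtrl and at 597.8, 1153, 753.5, 233.9 and 1046 in siLmod1 (-0.73, SE 0.06, adjusted p = 3.6e-05), and Vim, the vimentin of undifferentiated cells, changed by -0.46 (SE 0.05). Myl4, an embryonic essential myosin light chain, changed by -0.43, Sparc, a collagen-binding matrix protein, by -0.43, and Myh8, the perinatal myosin heavy chain, by -0.53. The test against siSirt1 was not passed by Nes (-0.16, adjusted p = 0.51), Vim (-0.23, 0.24), Myl4 (0.24, 0.44), Sparc (0.25, 0.31) or Myh8 (0.15, 0.8). Actins and myosin heavy chains are near-identical families, so reads could be split among their members.

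Other contractile and energy genes rose. Myl1, the essential light chain of fast muscle, went from 2346, 1950, 1341, 1053 and 2217 TPM to 3460, 2707, 2338, 2258 and 3995 (0.71, SE 0.08, adjusted p = 0.00025). Every line rose and line 4 roughly matched the siCtrl level of lines 1 and 7. Klhl41, a Kelch protein of the sarcomere, rose from 243.4 to 786.2 TPM over siCtrl lines to 531.8 to 1145 (0.71), and Pdlim3, a Z-disc PDZ and LIM protein, from 292.8 to 1032 TPM to 394.8 to 1605 (0.58). Nfe2l1, a transcription factor for proteasome genes, and Akr1b3, an aldose reductase, changed by 0.39 and 0.38. Against siSirt1, Myl1 (0.97, adjusted p = 0.028), Klhl41 (0.78, 0.0075), Pdlim3 (1.13, 0.0076), Nfe2l1 (0.49, 0.012) and Akr1b3 (0.96, 0.0047) were higher. Of the genes that follow, Atp5b was higher than in siSirt1 (0.59, adjusted p = 0.033), while mt-Co1 (0.26, 0.26) and Atp5a1 (0.43, 0.071) did not pass. Smaller changes were called for mt-Co1, a mitochondrially encoded cytochrome oxidase subunit (0.25, adjusted p = 0.019; without line 1 or line 7, 0.059 and 0.068), and for the ATP synthase subunits Atp5b (0.17, adjusted p = 0.029; without line 1, 3 or 7, 0.085 to 0.098) and Atp5a1 (0.21, adjusted p = 0.011; without line 1, 0.054).

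The wider programme was read through lists of genes by role. Their counts stand against 16.5% lower and 12.9% higher among all genes tested, and their medians against -0.01. These shares depend on level and were not matched to the lists. Of protein-coding genes 32.9% were called in either direction. From the lowest to the highest of 4 expression classes the share called went from 10.3% to 42.1%. In the highest class 874 of 3756 genes were called lower and 707 higher. With no block, 1 member of the N-glycan assembly list passed and 0 of the other lists described here.

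Adhesion genes fell as a group of small changes. Of 28 focal adhesion and integrin-linked proteins 15 fell, with a median log2 fold change of -0.18 that lay below 0 in 5 of 5 lines. Tns1, the actin-binding tensin of adhesions, fell from 38.8, 75.1, 77.5, 16.1 and 45.9 TPM to 20.1, 46.8, 52.9, 8.17 and 26.9 (-0.83, SE 0.07, adjusted p = 5.5e-05). Pxn, the scaffold paxillin, went from 86.9, 154.7, 115.7, 36.1 and 127.1 TPM to 53.9, 117.6, 80.4, 26.7 and 79.9 (-0.59, SE 0.05), and Vcl, the vinculin that ties adhesions to actin, from 99.8 to 323.1 TPM to 63.5 to 210.8 (-0.63, SE 0.06). In all 3 genes every line moved down while the groups overlapped, since the lines start at different levels. Against siSirt1, Pxn was lower (-0.42, adjusted p = 0.045), while Tns1 (-0.34, 0.09) and Vcl (-0.26, 0.3) did not pass. The other genes that fell were Pdlim7, Sorbs3, Tln2, Fermt2, Tgfb1i1, Zyx, Arhgef7, Src, Lims2, Pdlim5, Tns3 and Parva. The core TGAACC lies in the 3′ UTR of 8 of the 15 lower genes and of 13 of the 28 tested. It lies in 26.75% of all 3′ UTRs. The part of the core in the falls of this and the next lists was not tested.

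Rac1, a GTPase that drives protrusion and myoblast fusion, stood at 107.3, 125.6, 129.1, 139.7 and 123.2 TPM in siCtrl and at 39.9, 77.4, 59.4, 55.3 and 55.5 in siLmod1 (-1.19, SE 0.09, adjusted p = 2.9e-05; without the block adjusted p = 0.044). Its groups lay apart, and it was also lower than in siSirt1 (-1.29, adjusted p = 0.0014).

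The contractile apparatus outside the sarcomere fell in the same range. Of 30 non-muscle actomyosin genes 15 fell and 3, Ssh2, Cfl1 and Ppp1cb, rose (median -0.14). Limma on log2(TPM + 1) called 9 of them lower. Among the 15 lower genes 6 hold the core TGAACC in the 3′ UTR, as do 8 of the 30. Myl9 fell from 229.7, 32.8, 132.5, 90.8 and 390.2 TPM to 71.3, 16.9, 64.7, 25.6 and 97.3 (-1.57, SE 0.14, adjusted p = 6.9e-05), a loss in every line from levels that differ many-fold between lines. Myl12b, a non-muscle regulatory light chain, fell from 90.5, 56.2, 117.5, 25.9 and 104.9 TPM to 41.5, 32.7, 52.0, 12.1 and 58.3 (-1.05, SE 0.07), and its near-identical neighbour Myl12a was also called lower, so reads may be split between them. Cnn3, an actin-binding calponin, changed by -0.38. Against siSirt1, Myl12b was lower (-1.55, adjusted p = 0.0038), while Cnn3 did not pass (-0.01, adjusted p = 0.96). The non-muscle heavy chains Myh9 and Myh10, the filamin Flna, the actinins Actn1 and Actn4 and the kinases Limk1 and Limk2 were all among the genes that fell.

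Of 31 targets and regulators of YAP and TEAD 14 fell and 1, Mob1a, rose (median -0.20, below 0 in 5 of 5 lines). The list mixes targets with regulators that promote or restrain YAP, so its count is no readout of YAP activity. The 3′ UTRs of 10 of the 14 lower genes hold the core TGAACC, as do those of 12 of the 31. Wwtr1, which encodes the YAP relative TAZ, fell from 92.2, 155.5, 163.8, 38.5 and 172.3 TPM to 66.9, 105.6, 112.0, 28.6 and 109.3 (-0.58, SE 0.05, adjusted p = 4.0e-05). Asap1, an ArfGAP, fell from 7.23 to 18.4 TPM to 4.42 to 10 (-0.78), and Vgll3, a cofactor of TEAD, from 113.6 to 202.2 TPM to 63.7 to 124.8 (-0.64). All 3 were lower than in siSirt1 as well (adjusted p = 0.0038, 0.013 and 0.016). Tead1 and Amotl1 were also among the 14. In 1 fit of all 15 libraries 8 of the adhesion genes, 7 of the actomyosin genes and 6 of the YAP and TEAD genes were called lower, and with a minimum fold of 1.2 the counts were 8, 5 and 8.

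**Figure D5:**
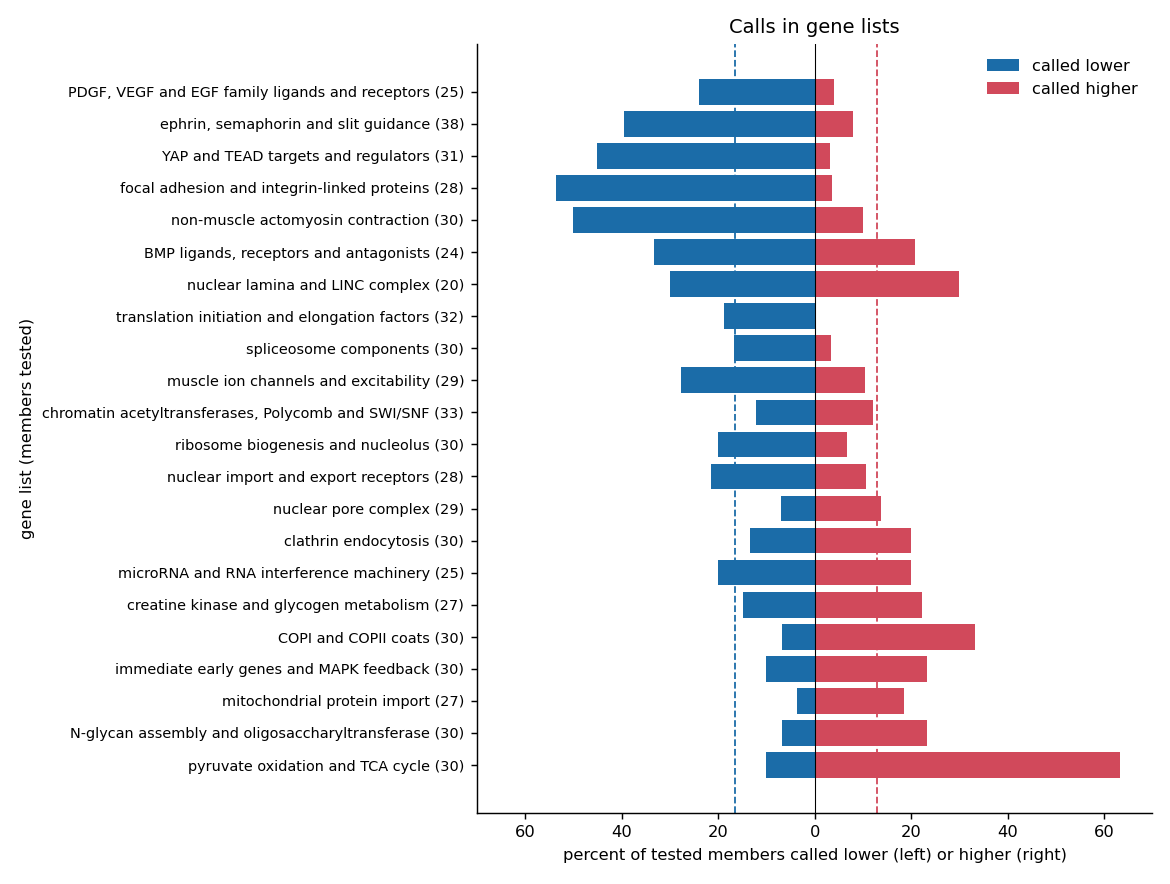
Percent of the tested members of each gene list that were called lower (left, blue) or higher (right, red), ordered by the list's median log2 fold change, with the number tested in brackets. Dashed lines mark 16.5% lower and 12.9% higher among all 15022 genes; the adhesion, actomyosin, YAP and guidance lists reach well to the left and the TCA cycle list to the right.

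Guidance receptors, which steer cells by contact and gradients, were lower in part. Of 38 tested ephrin, semaphorin, netrin and slit genes 15 fell and 3 rose (median -0.24, below 0 in 5 of 5 lines). Here 5 of the 15 lower genes hold the core TGAACC in the 3′ UTR, as do 15 of the 38. Ephb2, a receptor kinase for ephrins, stood at 33.4, 24.2, 32.4, 27.6 and 33.6 TPM in siCtrl and at 21.9, 15.5, 17.5, 19.9 and 20.6 in siLmod1 (-0.71, SE 0.05, adjusted p = 3.3e-05), with no overlap. The semaphorin receptors Plxnb2 (65.1 to 154.1 against 42.1 to 101.7 TPM, -0.65) and Plxnb1 (1.28 to 14.8 against 0.632 to 5.72 TPM, -1.34) fell as well. The ligands Sema4b, Sema4d and Sema3a rose, but leaving out line 2 or line 7 left 0 of them called.

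Of 25 tested ligands and receptors of the PDGF, VEGF and EGF families 6 fell and 1, Vegfb, rose (median -0.28). Csf1, a growth factor for macrophages, stood at 28.4 to 232.3 TPM in siCtrl and 26.3 to 115.3 in siLmod1 (-0.71), highest in line 4. Pgf, the placental growth factor, stood at 0.381 to 23.5 against 0.202 to 13.8 TPM (-1.04), lowest in line 4. Erbb2, a receptor of the EGF family, changed by -0.29. With no filter on low counts, 13 of the list were called lower.

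Members of the BMP pathway, which holds back muscle differentiation, moved both ways: 8 of 24 fell and 5 rose (median -0.13), and 3 rose when line 1, 3 or 7 was left out. Rgma, a co-receptor for BMP, fell from 15.1, 23.8, 36.4, 19.5 and 18.7 TPM to 6.57, 10.8, 19.8, 10.9 and 5.59 (-1.19, SE 0.11, adjusted p = 7.1e-05). Gdf11, a ligand related to myostatin, fell from 34.2 to 79.9 TPM to 22.4 to 49.8 (-0.65). Acvr2a, a type II receptor, rose from 19.1 to 50.8 TPM to 25.9 to 69.8 (0.42), as did Bmp2, Bmpr1b, Smad6 and Smad9.

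Immediate early genes and MAPK feedback genes gave 7 higher and 3 lower of 30 (median 0.06). Dusp1, a phosphatase that switches off MAP kinases, rose from 34.6, 13.6, 18.6, 90.7 and 68.4 TPM to 53.9, 22.8, 38.9, 110.0 and 94.0 (0.57, SE 0.1, adjusted p = 0.0025). Junb rose by 0.32 and Fos was also called higher, while Egr1, Klf2 and the antiproliferative Btg1 (-0.26) fell. The count of higher genes was unsteady: it was 2 without line 3, where the median was -0.015, 3 without line 2 or line 7, 4 without line 1, and 12 with no filter on low counts.

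The series' title concerns where Sirtuin 1 sits in the cell, and nuclear transport and envelope genes were listed for that reason. Of 28 import and export receptors 6 fell and 3 rose (median -0.02, and 0.03 with library totals, where 3 fell and 6 rose), so no common direction was found. Kpna6, an importin alpha, fell from 77.4 to 107.5 TPM to 65.1 to 90.9 (-0.27), and Kpna1 rose from 40.1 to 49.6 TPM to 52.1 to 63.4 without overlap (0.35). The exporter Xpo6 rose (0.27), and the main importin Kpnb1 was among those that fell. Without line 1, 2 receptors were called lower, and without line 7, 3 were.

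Of 20 lamina and LINC genes, which hold the nuclear envelope and link it to the cytoskeleton, 6 fell and 6 rose (median -0.08). Syne3, a nesprin, fell from 3.75 to 41.7 TPM to 2.15 to 27.5 (-0.56), and Tmpo, a lamin-binding protein, had a change of -0.40. Tmem38a, a channel of the nuclear and reticular membrane, rose from 209.5 to 675.3 TPM to 363.4 to 854.3 (0.47), and so did Sun1, Sun2 and Syne1. Counts in both directions dropped to 3 without line 1. Nuclear pore genes changed little: 4 of 29 rose and 2 fell (median -0.01), led by Nup50, which rose from 49.4 to 64.4 TPM to 67.7 to 96.4 without overlap (0.45, SE 0.06).

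Changes in both directions were also seen in the machinery of RNA interference, with 5 of 25 higher and 5 lower (median 0.03). Tnrc6c, a partner of Argonaute, fell from 23.6, 18.1, 24.3, 12.9 and 21.7 TPM to 14, 13.5, 15.5, 7.64 and 11.8 (-0.74, SE 0.06, adjusted p = 4.8e-05). Tarbp2, a partner of Dicer, fell from 20.5 to 28.5 TPM to 13.7 to 20.4 without overlap (-0.56), and Ago3 fell by 0.33. Dicer1, Ago1, Dgcr8, Cnot1 and Tnrc6b were called higher, and 0 of the list were without line 1 or line 7. Both groups had received small interfering RNA. Chromatin regulators gave 4 higher and 4 lower of 33 (median -0.03), with the methyltransferases Setd7 higher (0.45) and Ezh2 lower (-0.52) and the Polycomb partner Jarid2 higher (0.48); with library totals 6 rose and 1 fell, and 1 fell without line 1 or line 7.

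Genes of oxidative metabolism rose by small steps. Of 30 genes of pyruvate oxidation and the TCA cycle 19 rose and 3 fell, with a median log2 fold change of 0.20 that lay above 0 in 5 of 5 lines. Leaving out 1 line at a time left 13 to 18 higher. In 1 fit of all 15 libraries 4 were called higher and 2 lower. With a minimum fold of 1.2 (edgeR's glmTreat) the counts were 0 and 2, with 3 higher at an unadjusted p under 0.05, while DESeq2 with no minimum fold called 19 and 3. Mdh1, the cytosolic malate dehydrogenase, rose from 281.3, 290.9, 373, 360.2 and 302.5 TPM to 397, 351.1, 482.4, 512.9 and 398.8 (0.36, SE 0.05, adjusted p = 0.00074). Subunits of pyruvate dehydrogenase (Dlat, Pdhb, Pdhx, Dld), of succinate dehydrogenase (Sdha, Sdhc, Sdhd) and the pyruvate carriers Mpc1 and Mpc2 were among the genes that rose. So were Pdk1, Pdk2 and Pdk4, kinases that inhibit pyruvate dehydrogenase, so the count does not give a direction of flux.

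The exceptions in this list were Ogdh, Idh2 and Mdh2. Ogdh, the oxoglutarate dehydrogenase, fell from 160.5, 124.3, 158.3, 156.2 and 103 TPM to 108.3, 106.2, 124.6, 104.7 and 62.4 (-0.53, SE 0.07, adjusted p = 0.00044). Idh2, the mitochondrial NADP-linked isocitrate dehydrogenase, fell from 169.6 to 229 TPM to 124.6 to 173.7 (-0.48). Mitochondrial import genes gave 5 higher and 1 lower of 27 (median 0.07), 11 and 0 with library totals; Timm10 rose by 0.32, and the chaperone Hspa9 by 0.17 (adjusted p = 0.018; without line 3, 0.060).

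Creatine kinase and glycogen genes gave 6 higher and 4 lower of 27 (median 0.05). Gbe1, the glycogen branching enzyme, rose from 27.4, 15.2, 20.3, 31.0 and 12.4 TPM to 46.6, 25.3, 29.4, 53.8 and 18.1 (0.63, SE 0.05, adjusted p = 5.0e-05). Creatine kinase isoforms parted: Ckmt2 rose, as above, while Ckb, the brain-type isoform of precursor cells, fell from 1566, 1298, 1428, 565.5 and 1218 TPM to 752.2, 940.8, 911.6, 315.1 and 695.1 (-0.81, SE 0.07, adjusted p = 7.2e-05). Against siSirt1, both were higher in siLmod1 (2.05, adjusted p = 0.015, and 1.2, adjusted p = 0.0044). Of 29 ion channel genes 8 fell and 3 rose (median -0.04, and 0.01 with library totals), with Cacnb3, a calcium channel beta subunit, at -0.65, the stretch-gated channel Piezo1 at -0.35 and the calcium sensor Stim1 at -0.28. Limma on log2(TPM + 1) called 3 of these lower, and 5 were lower without line 1.

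In the secretory pathway, higher genes outnumbered lower ones. Coat and cargo genes of COPI and COPII gave 10 higher and 2 lower of 30 (median 0.05), but the higher count fell to 2 without line 1, 5 without line 2 and 4 without line 3 or line 7. Sec24a, a cargo-binding coat subunit, rose from 9.63 to 18 TPM to 12.5 to 21.7 (0.30), and the small GTPases Arf4 (-0.36) and Arf1 (-0.31) fell. N-glycan assembly gave 7 higher and 2 lower of 30 (median 0.08; 4 higher without line 1 or line 3). Alg10b, which adds the last glucose to the glycan precursor, was the exception in size: it stood at 58.1, 50.4, 68.0, 54.6 and 59.1 TPM in siCtrl and at 20.3, 30.1, 28.0, 23.1 and 22.3 in siLmod1, with no overlap (-1.28, SE 0.09, adjusted p = 2.2e-05; without the block 0.0032).

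Alg11 and Dpagt1, enzymes of the same glycan precursor, rose (0.41 and 0.33). Clathrin endocytosis gave 6 higher and 4 lower of 30 (median 0.02), with the early endosome GTPase Rab5c lower without overlap (153.3 to 185.3 against 122.8 to 135.8 TPM, -0.40) and the tether Eea1 (0.34) and the light chain Cltb (0.34) higher. The lower count was 1 without line 2 and 2 without line 1 or line 7.

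Genes of RNA and protein production stayed close to the background. Spliceosome components gave 5 lower and 1 higher of 30 (median -0.04), translation factors 6 lower and 0 higher of 32 (median -0.05), and ribosome biogenesis genes 6 lower and 2 higher of 30 (median -0.03). With library totals these medians were 0.01 or 0.02, so they carry no direction, and the translation factors were then 2 lower and 3 higher. Leaving out line 1, 2, 4 or 7 left 2 translation factors called lower. Snrpa1, a U2 protein (-0.40), Npm1, the nucleolar nucleophosmin (-0.29), and Rrs1, a ribosome assembly factor (-0.39), fell, and Nop10, a subunit of the pseudouridylation complex, rose without overlap from 88.9 to 123.4 TPM to 124.2 to 166.4 (0.35).

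Markers of the cells the cultures should hold, and of those they might, were read in the same way. Of 10 myoblast and satellite cell markers 6 fell and 0 rose (median -0.25). Pax7, the satellite cell factor, fell from 24.9, 23.3, 36.5, 33.2 and 46.7 TPM to 15.8, 16.2, 16.4, 24.7 and 24.1 (-0.79, SE 0.09, adjusted p = 0.00018), and Vcam1, an adhesion receptor of these cells, had a change of -0.55. In bulk RNA, fewer cells of a kind and less RNA per cell cannot be told apart.

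Fibroblast markers fell in part: of 12 listed 7 were tested and 4 fell, with a median of -0.69. Their summed level was 50.5 to 184.2 TPM in siCtrl and 37.6 to 103.6 in siLmod1, 6 of the 12 stayed under 1 TPM in all 10 libraries, among them Pdgfra, Dcn and Lum, and Tcf21 was at 0 in all. Col3a1, a fibrillar collagen, made up most of the sum and fell from 94.8, 36.9, 146, 133 and 165.3 TPM to 51.2, 27.3, 57.8, 63.5 and 95.8 (-0.95, SE 0.1, adjusted p = 0.00013). Of 12 pericyte and smooth muscle markers 9 were tested and 5 fell (median -0.72). Abcc9, a potassium channel subunit, fell from 1.29 to 21.7 TPM to 0.508 to 10.7 (-1.18), Notch3 from 15.8 to 64.7 TPM to 14.5 to 32.5 (-1.04) and Tagln from 9.46 to 103.1 TPM to 7.31 to 54 (-0.66).

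The summed pericyte level, 7752 to 12775 TPM in siCtrl and 6570 to 12019 in siLmod1, includes Des, which muscle cells also express, and Kcnj8, Myh11, Cnn1 and Higd1b stayed under 1 TPM in all 10 libraries. These fibroblast and pericyte markers moved with the lower adhesion and actomyosin genes, and their part in those results was not tested. Of 15 endothelial markers 5 were tested and 9 stayed under 1 TPM in all 10 libraries. Vwf rose (0.41, adjusted p = 0.012; without line 3, 0.055), Tek was at 12.7 ± 27.7 TPM in siCtrl and 12 ± 25.7 in siLmod1 (SD, n = 5), and the summed level was 4.7 to 64.8 TPM in siCtrl against 4.47 to 60.4. Macrophage markers gave 0 called of 3 tested, at a summed 5.91 to 20.2 against 6.69 to 22.2 TPM. Of 5 tested glial markers 1, the myelin protein Pmp22, fell (-0.93), at a summed 14.2 to 103.8 against 9.27 to 50.6 TPM.

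Adipocyte markers were few but moved up. The defining genes Adipoq, Plin1, Cidec, Fabp4, Lep, Retn and Cfd stayed under 1 TPM in all 10 libraries, and all 3 tested genes rose, at a summed 11.7 to 82.9 TPM over siCtrl against 19.2 to 195.4 over siLmod1. Car3, a carbonic anhydrase that muscle also makes, stood at 23.1, 32.5, 68.8, 10.3 and 30.7 TPM in siCtrl and at 29.5, 67.2, 173.9, 17.2 and 50.3 in siLmod1 (0.82, SE 0.12, adjusted p = 0.00085). Lpl, a lipase of fat and muscle, rose from 0.489 to 11.8 TPM to 1.17 to 16.8 (0.82). Pparg, the adipogenic nuclear receptor, rose in 4 of 5 lines (0.92, SE 0.25, adjusted p = 0.021; without line 3 or line 7, 0.069 and 0.099).

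Genes next to Lmod1 on chromosome 1 were described without regard to function. Among the tested genes within 500 kb, Nav1, a microtubule-binding navigator, fell from 20.3, 11.5, 22.3, 9.61 and 22.9 TPM to 12.9, 7.0, 12, 6.0 and 16.6 (-0.72, SE 0.06, adjusted p = 5.9e-05). Shisa4 (-0.40), Phlda3 (-0.42), Ptprv (-2.18), at 1.01 TPM or less in every library, and the predicted gene Gm4204 (-0.90) were also called lower. The calls of 5 more lower neighbours were near the threshold and were lost when any of several lines was left out. For Lad1 (-1.02) the adjusted p was 0.016, and 0.069 or 0.057 without line 2 or line 3. For Csrp1 (-0.57) it was 0.045, and 0.090 to 0.140 without line 1, 4 or 7. For Tnnt2 (-0.20) it was 0.023, and 0.058 to 0.100 without line 2, 3 or 7. For Ipo9 (-0.15) it was 0.032, and 0.082 to 0.140 without line 1, 2 or 7. For Gm38399 (-0.75) it was 0.027, and 0.054 to 0.064 without line 1, 3 or 7. Timm17a, Arl8a, Rnpep, Tnni1, Ube2t, Lgr6, Gpr37l1 and Gm26642 were not called, and no neighbour was called higher. Among all genes tested, 16.5% were called lower and 12.9% higher. Tnni1, a slow troponin at 625.7 to 2443 TPM in siCtrl, had a log2 fold change of 0.05 (SE 0.06).

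Calls followed the level and class of the gene. Protein-coding genes were called in 32.9% of 12896 cases, lincRNAs in 11.8%, antisense genes in 9.28% and processed pseudogenes in 3.98%. From the lowest to the highest of 4 equal classes of expression the share called was 10.3%, 28%, 37.6% and 42.1%.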

How the data were processed

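Per the labels, 5 siCtrl, 5 siLmod1 and 5 siSirt1 libraries of primary myoblasts were made from polyadenylated RNA. The authors deposited raw counts per Ensembl gene and TPM values, which they had scaled by length and library. Per the submitters' processing notes, DESeq2 and build mm10 were used; the aligner, counter and annotation behind the counts were not given in the sources used. Of 49315 gene IDs, 48970 had a symbol in GENCODE M21, which is on that build.

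Counts were tested in R 4.3.3 with edgeR 4.0.16 (filterByExpr, TMM, quasi-likelihood F test, line as block, Benjamini-Hochberg over all genes tested, called at an adjusted p under 0.05). Log2 fold changes are siLmod1 minus siCtrl with the SE of the fit, and deposited TPM values give levels. The floor of 3 counts was 0.115 CPM (counts scaled to the library total) in the shallowest siCtrl library and covers counting error only. In data simulated for this comparison (14803 genes), the fit recovered 173 of 200 genes changed 2-fold with 9 false calls. The simulated counts were drawn from the fitted model itself, and no smaller change was simulated. The simulation therefore cannot speak for calls near the median size of 0.37 on the log2 scale. The 3′ UTRs were rebuilt from the GENCODE M21 basic annotation, 1 transcript per gene.

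Named genes were the 12 largest fold changes in each direction (called, mean of 5 CPM or more, same sign in 5 of 5 lines, no predicted genes or pseudogenes), the 8 largest differences in CPM, up to 3 members with the smallest p of each gene and marker list, genes within 500 kb of Lmod1, and Lmod1, Lmod2, Lmod3, Sirt1, Myod1, Myog and Pax7. Members, lists and rule were chosen with earlier results of these data known. Alternatives were fits without the block, with DESeq2 1.42.0, with other scalings and filters, with limma 3.58.1 on log2(TPM + 1), with all 15 libraries, with a minimum fold of 1.2 and without each line. The deposited normalized counts were not used here. Some items of the lists are not reported here.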

Additional observations from a re-analysis of the deposited data

Results flagged for a closer look

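Of 88 groups of 5 libraries examined among the most changed genes, 9 held a library far from the other 4 (gap over range above 0.71). That cut-off flags about 1 in 20 groups of independent, normally distributed values. Here it was applied to TPM on a linear scale, and siCtrl and siLmod1 share their lines. The count of 9 therefore cannot be set against that rate. Line 4 accounts for most. Its siCtrl library was at 47.3 TPM for Fgfbp1 (others 0.509 to 8.83), 86.7 for Ackr3 (12.3 to 15), 451.1 for Sgk1 (9.47 to 57.5) and 6012 for Vim (1290 to 2605). Its siLmod1 library was at 27.0 TPM for Ackr3 (3.54 to 5.75), 505.8 for Sgk1 (27.0 to 126.6) and 4946 for Vim (952.2 to 1873). Aqp1 stood apart in line 7, at 52.9 TPM in siCtrl (others 4.67 to 12.5) and 10.7 in siLmod1 (1.74 to 4.1). Except for Fgfbp1, the line that stood apart in siCtrl also did so in siLmod1.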

How the results depend on the processing

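The count of called genes, 4430 for siLmod1 against siCtrl, was 17 with no replicate block, 1427 with all 15 libraries in 1 fit and 1220 with a minimum fold of 1.2 (glmTreat). Leaving out 1 line gave 2833 to 4264 calls. The count of 2379 against siSirt1 was 229 with no replicate block and 946 to 1771 without 1 line. Of 134 called named genes, 120 were called in all 5 fits without 1 line. Signs reversed for 3 genes that were not called: Arl8a (-0.02) was at 0.03 with library totals, 0.02 with limma on log2(TPM + 1) and 0.02 without replicate 4; Cd14 (-0.05) at 0.01 with library totals, 0.0017 with limma, 0.03 with no replicate block and -0.14 to 0.13 without 1 line; Myod1 (0.04) at -0.0038 to 0.08 without 1 line. With 1 transfection per line and group, the response of a line and the variation between transfections cannot be told apart. The p-values of the blocked fit rest on how well the change agreed across these 5 lines. In the lowest of 4 expression classes 10.3% of genes were called; the part of depth in that share was not tested.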
